A study of Mus musculus with 12 samples.

Results

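Genes that set the electrical excitability of muscle fibres were examined in quadriceps muscle of 7-day-old mice of the strain C57Bl/6, on 6 arrays labelled KO (cofilin-2 null, lacking the actin-severing protein encoded by Cfl2) and 6 arrays labelled WT (wildtype littermates). The set holds 7 genes picked by symbol, with earlier results of these arrays known. They are Lrrc38, Kcnma1, Scn4a, Clcn1, Kcnj2, Kcna7 and Kcnn3. Among the probe sets paired with exactly 1 symbol, each gene was represented by the brightest on average over the 12 arrays. Of the 7 genes, 6 had such a probe set, out of 19938 genes that had one in all, and Scn4a was not analysed here. Each array held RNA of 1 mouse, not pooled, and the study describes the null mice as myopathic from soon after birth. How the null allele was built is not given in the sources used here, and the labels name no further allele or treatment.

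An action potential in muscle is started by sodium channels, ended by potassium channels and damped between signals by a large chloride conductance. Clcn1 encodes ClC-1, which carries most of that resting chloride current, and its loss causes myotonia. Scn4a encodes the sodium channel of the fibre surface, and Kcnj2 encodes the inward rectifier Kir2.1, which holds the membrane near its resting potential and is mutated in Andersen-Tawil syndrome. Kcnma1 encodes the pore of the BK channel, a potassium channel opened by calcium and voltage, and Lrrc38 encodes a leucine-rich gamma subunit that makes BK channels open more readily. Kcna7 encodes the voltage-gated channel Kv1.7, and Kcnn3 encodes SK3, a calcium-activated potassium channel known from immature and denervated muscle.

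The labels could not be taken at face value. On the log2 scale of the deposited values, Cfl2 ranged from 4.92 to 7.71 on the labelled WT arrays and from 12.31 to 12.43 on the labelled KO arrays, so that all 12 arrays opposed their labels. The study lists Cfl2, Lrrc38 and Clcn1 as lower and Scn3a as higher in the null mice, each opposite to the difference by label here. Groups are therefore called by their labels, no array was moved, and each difference below is labelled KO minus labelled WT. Only directions were compared with the study, since its printed ratios for Cfl2, Lrrc38 and Scn3a lie much nearer to 1 than the folds here. Those ratios lie near the mean log2 level on the labelled WT arrays divided by that on the labelled KO arrays. These means were 6.06 and 12.38 for Cfl2, 6.26 and 7.91 for Lrrc38, and 6.41 and 5.24 for Scn3a. The study names geometric means for its fold changes but no scale. With the labels exchanged on all 12 arrays every sign below would turn, and no size, error or p would change. Muscle fibre markers were bright, with all 12 measured, the dimmest (Mb) at a mean log2 level of 10.54, and a mean over the list of 12.41 to 12.68 on the labelled WT arrays and 12.54 to 12.75 on the labelled KO arrays. In all, 31.9% of genes passed the test (limma, Benjamini-Hochberg adjusted p under 0.05), 20.1% higher and 11.8% lower on the labelled KO arrays. Of the 12 muscle fibre markers 2 were higher, the fast myosin gene Myh4 by 1.70 ± 0.27 (SE) and the fast-fibre actinin gene Actn3 by 0.54 ± 0.07 on the log2 scale. Tnnt3, Tnni2 and Mylpf, which encode fast troponin and myosin light chain proteins, were lower by -0.12, -0.13 and -0.14, and 7 markers did not pass. Of all genes, 10.7% were higher and 4.69% were lower with groups that did not overlap, as in each of these 5 markers. Their part in the differences of Lrrc38 and Clcn1 was not tested.

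The stretch before the start of transcription is shown for Lrrc38 and Clcn1, since these were the members whose labelled groups did not overlap. Both were higher on the labelled KO arrays, beside 10.7% of all genes. Both are the 250 bases upstream of the RefSeq start in GRCm38.p6, 5′ to 3′ on the plus strand, for Lrrc38 at chr4:143349500-143349749 and for Clcn1 at chr6:42286435-42286684. Capitals mark E-boxes (CANNTG, the letters bound by myogenic factors such as MyoD, and the same on both strands) and, in Clcn1, a site of the form CTANNNNTAG, the outline of a MEF2 site.
Lrrc38: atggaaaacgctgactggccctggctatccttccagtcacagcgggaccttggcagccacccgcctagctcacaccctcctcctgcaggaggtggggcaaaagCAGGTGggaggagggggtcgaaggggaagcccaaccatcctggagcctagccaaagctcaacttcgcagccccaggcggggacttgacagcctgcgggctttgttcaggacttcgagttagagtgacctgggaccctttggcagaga
Clcn1: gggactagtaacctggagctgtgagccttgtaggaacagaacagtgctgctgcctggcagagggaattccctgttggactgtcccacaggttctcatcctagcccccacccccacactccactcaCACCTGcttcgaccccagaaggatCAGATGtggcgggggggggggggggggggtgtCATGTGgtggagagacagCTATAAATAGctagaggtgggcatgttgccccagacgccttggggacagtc
The Lrrc38 stretch held 1 E-box, 147 to 142 bases before the start. The Clcn1 stretch held 3, the nearest 69 to 64 bases before the start, and the site of the form CTANNNNTAG lay 51 to 42 bases before it and contained a TATAAA element at 50 to 45. Of 32851 promoter entries, 66.2% held an E-box, 3.2% held CTANNNNTAG and 12.4% held TATAAA on either strand. Among the other members with a probe set, Kcna7 held 3 E-boxes, Kcnj2 held 2 and Kcnma1 and Kcnn3 held 0. A CArG box, the site of serum response factor, was in 1.47% of all entries and in 0 of the 6 members. These matches describe letters only, and binding was not measured.

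Lrrc38, the BK gamma subunit, had the largest difference of the set and was 3.14-fold higher on the labelled KO arrays. Its log2 level had a lowest value of 5.95, a median of 6.10 and a highest value of 6.94 on the labelled WT arrays, and 7.65, 7.99 and 8.13 on the labelled KO arrays. The groups did not overlap, and the array labelled WT1 was the highest of its group, with the next one, WT5, at 6.50. The log2 difference was 1.65 ± 0.16 (SE), rank 13 of 19938 genes from the highest, or from the lowest with the labels exchanged. Because the study lists Lrrc38 among its largest changes on these arrays, the difference is given as a description, with no test. On the array labelled KO5, where the mean of 7 adipocyte markers was 8.50, against 9.48 to 10.22 on the others labelled KO, Lrrc38 stood at 8.05. On WT1, the highest array of its group for Lrrc38, the adipocyte mean was also the highest of its group (9.45, against 8.45 to 8.81). Over the 12 arrays, deviations from the labelled group means correlated at 0.17 between Lrrc38 and the adipocyte mean. KO5 and WT1 are single arrays, and the part of adipocytes in the Lrrc38 difference was not tested. Leaving out each array in turn gave differences of 1.59 to 1.79.

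Clcn1, the resting chloride channel, was 1.56-fold higher on the labelled KO arrays. Its log2 level ran from 7.80 over a median of 8.16 to 8.27 on the labelled WT arrays and from 8.61 over 8.75 to 8.93 on the labelled KO arrays. The groups did not overlap. The log2 difference was 0.65 ± 0.08 (SE), with an adjusted p of 7.30e-05 in limma and a 95% interval of 0.47 to 0.82. Since the study lists Clcn1 among its changed genes on these same arrays, this call is not independent of it. Clcn1 lay lowest on the array labelled WT2, where Lrrc38 was also low at 5.97.

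**Figure D1:**
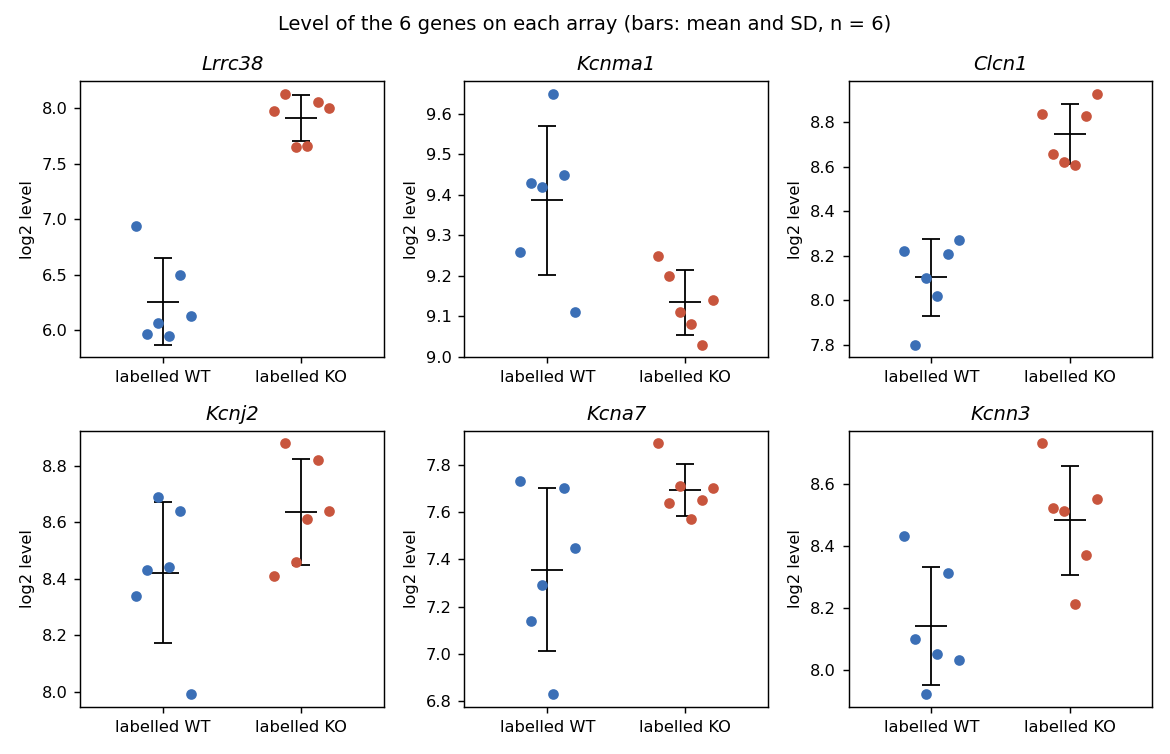
Log2 level of the 6 genes on each array (points), with the labelled WT arrays in blue and those labelled KO in red; bars give the mean and SD (n = 6), and the vertical axes differ between panels. Lrrc38 and Clcn1 have groups that do not overlap, with the lowest array labelled KO at 7.65 and 8.61, while the groups overlap in the other 4 panels.

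Kcnma1, the BK pore, was lower on the labelled KO arrays, opposite in sign to its gamma subunit Lrrc38. Its log2 level had a lowest value of 9.11, a median of 9.43 and a highest value of 9.65 on the labelled WT arrays and 9.03, 9.13 and 9.25 on the labelled KO arrays. The groups overlapped, since the array labelled WT6 lay at 9.11 and WT1 at 9.26, while 6 of 6 labelled KO arrays were below the labelled WT mean of 9.39 ± 0.18 (SD, n = 6). The fall was 0.25 ± 0.08 (SE) on the log2 scale, or 1.19-fold, with an adjusted p of 0.0212 in limma. With each array centred on its median over all rows of the table the difference was -0.20, with an adjusted p of 0.0599. A further probe set of Kcnma1, at a mean log2 level of 4.20 on the labelled KO arrays and 4.27 on the labelled WT arrays, had a smaller log2 difference, -0.08 ± 0.04 (SE), and did not pass (adjusted p = 0.185). Kcnma1 is also a gene of smooth muscle. The mean of 8 smooth muscle and pericyte markers was 9.37 to 9.56 on the labelled WT arrays and 9.17 to 9.48 on the labelled KO arrays. Of those markers 1 was higher (Rgs5) and 2 were lower (Cnn1 and Cspg4), and their part in the Kcnma1 difference was not tested. In whole muscle, fewer cells of a type and less RNA per cell cannot be told apart.

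Kcnn3, the SK3 channel, was 1.27-fold higher on the labelled KO arrays. Its log2 level ran from 7.92 over a median of 8.08 to 8.43 on the labelled WT arrays and from 8.21 over 8.52 to 8.73 on the labelled KO arrays. The groups overlapped through the array labelled WT1 at 8.43 and WT5 at 8.31 on one side and the array labelled KO4 at 8.21 and KO5 at 8.37 on the other, and 4 of 6 labelled KO arrays lay above every array labelled WT. The log2 difference was 0.34 ± 0.10 (SE), with an adjusted p of 0.0142 in limma. The call was lost after quantile normalization (0.27, adjusted p = 0.0511) and with array weights (0.25, adjusted p = 0.0550).

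Kcna7, the Kv1.7 channel, had nearly the same log2 difference as Kcnn3, 0.34 ± 0.13 (SE), but did not pass (adjusted p = 0.0618 in limma). Its log2 level ran from 6.83 over a median of 7.37 to 7.73 on the labelled WT arrays and from 7.57 over 7.68 to 7.89 on the labelled KO arrays. The arrays labelled WT were spread over a wider range (SD of 0.34) than the labelled KO arrays (SD of 0.11), and WT1 and WT5 lay inside the range of the labelled KO arrays. Without the array labelled WT1 the difference was 0.41 with an adjusted p of 0.0238, and without WT5 it was 0.41 with an adjusted p of 0.0294. With array weights it was 0.19 (adjusted p = 0.212).

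Kcnj2, the Kir2.1 inward rectifier, did not pass either (log2 difference 0.21 ± 0.11 SE, adjusted p = 0.162 in limma), with a 95% interval of -0.03 to 0.46. Its log2 level ran from 7.99 over a median of 8.44 to 8.69 on the labelled WT arrays and from 8.41 over 8.63 to 8.88 on the labelled KO arrays. The groups overlapped widely, and the array labelled WT6 was the lowest of all 12. Without it the difference was 0.13.

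Of the 5 members tested, 2 were higher (Clcn1 and Kcnn3), 1 was lower (Kcnma1) and 2 did not pass (Kcnj2 and Kcna7). Over all genes 31.9% passed, and nothing is read from the members' count, since they were chosen with earlier results known. The median log2 difference of the 6 members was 0.34, beside -0.01 over all genes.

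Within the labelled groups, 9 of the 15 pairs of members deviated in the same direction on balance (a positive correlation). Each array's deviation from the mean of its labelled group was taken for each gene and correlated over the 12 arrays, as a description with no test, since arrays share their muscle sample and normalization across genes. Lrrc38 deviated most alike with Kcna7 (r = 0.74), Kcnn3 (0.71) and Clcn1 (0.58). Kcna7 went with Kcnn3 (0.67) and Clcn1 (0.60), and Clcn1 with Kcnn3 at 0.39. Kcnma1 ran the other way against Kcna7 (-0.47), Clcn1 (-0.37) and Lrrc38 (-0.25), and went with Kcnj2 (0.43). The array labelled WT1 was the highest of its group for Lrrc38 (6.94), Kcna7 (7.73) and Kcnn3 (8.43). Without it, Lrrc38 correlated at 0.63 with Kcna7, 0.55 with Kcnn3 and 0.61 with Clcn1, but at -0.02 with Kcnma1. The mean of the muscle fibre markers was also highest of its group on WT1 (12.68), and its deviations correlated at 0.78 with those of Kcna7, 0.75 with Kcnn3, 0.63 with Lrrc38 and 0.54 with Clcn1. Over the labelled WT arrays that mean moved largely with Myh4 (SD of 0.77) and Mb (0.49), against 0.03 for Acta1 and 0.04 for Ckm. It is therefore not a plain measure of fibre content. The deviations of Kcnma1 and Kcnj2 correlated at -0.42 and -0.57 with the muscle fibre mean and at 0.70 and 0.70 with the mean of 8 endothelial markers. Against the smooth muscle and pericyte mean, Kcnma1 correlated at 0.57 and Kcnn3 at 0.62. With the mean of 8 myeloid markers Kcnma1 also correlated at 0.57, and Kcna7 at -0.65. Clcn1 correlated at -0.71 with the mean of 5 Schwann cell markers, and Kcnj2 at 0.55 with the fibroblast mean. The marker correlations named were picked, mostly for their size, from those of all members with every marker list. The array labelled WT6 was lowest of its group for the endothelial mean (9.64), Kcnma1 (9.11) and Kcnj2 (7.99). On WT4 the myeloid mean was highest of its group (8.54) and Kcna7 lowest (6.83). The marker correlations were not recomputed with an array left out, so that they may rest on single arrays. The endothelial mean was 9.64 to 10.06 on the labelled WT arrays and 10.17 to 10.25 on the labelled KO arrays, with 6 of 8 markers higher and 0 lower. The part of these cell types in the members' differences was not tested.

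**Figure D2:**
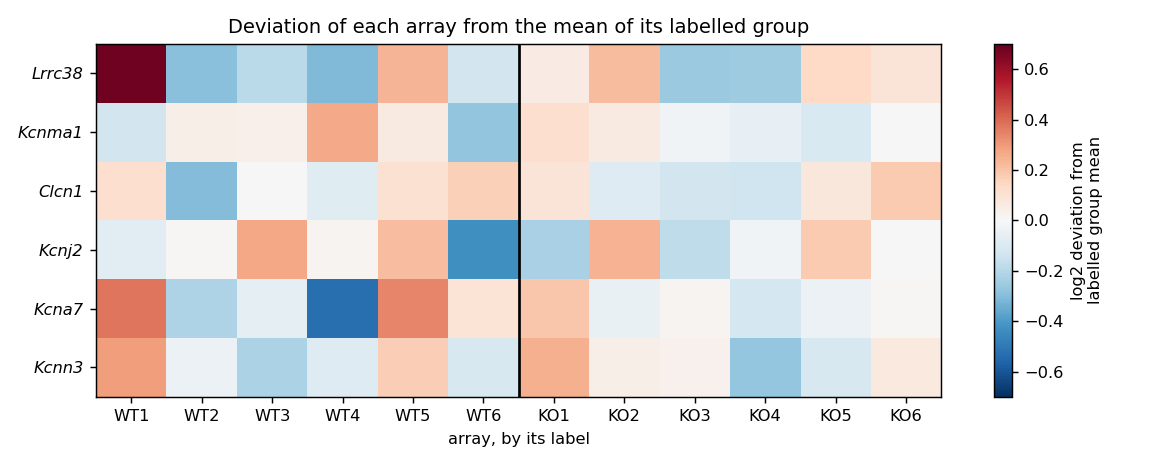
Deviation of each array (columns, by label) from the mean of its labelled group for the 6 genes (rows), on the log2 scale, with red above and blue below the mean. On WT1, Lrrc38 stood 0.68, Kcna7 0.37 and Kcnn3 0.29 above the group mean, while Kcnma1 stood at -0.13.

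By the same measure, the genes whose deviations were most like those of Lrrc38 over the 12 arrays were Tfcp2 (r = 0.91), B3gat3 (0.90), Polrmt (0.90), Tnip1 (0.89) and Zhx2 (0.88). Without the array labelled WT1 these values were 0.85, 0.75, 0.79, 0.70 and 0.75. The genes were picked as the highest among the 19938, predicted genes left out, over 12 arrays. Such high values come in part from the picking, and no test was made. Of these 5 genes, Tfcp2 passed the test of the labelled groups, with a log2 difference of 0.20 (adjusted p = 0.0186 in limma), and the others differed by -0.05 to 0.12 and did not pass.

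The BK channel is built from the Kcnma1 pore with beta subunits (Kcnmb1 to Kcnmb4) or gamma subunits (Lrrc26, Lrrc38, Lrrc52 and Lrrc55). Beside Kcnma1 and Lrrc38, 1 of 7 partner genes was higher and 2 were lower. Lrrc55, a gamma subunit best known from brain, differed by 0.42 ± 0.14 (SE, adjusted p = 0.0397 in limma), with levels of 6.51 to 6.73 on the labelled KO arrays and a wider spread of 5.65 to 6.60 on the labelled WT arrays. Its call was lost without any 1 of 9 arrays (KO1 to KO6, WT2, WT4 and WT6), with differences of 0.30 to 0.49 over all 12 omissions. Kcnmb3 fell by 0.25 ± 0.07 (SE, adjusted p = 0.0215) and Lrrc52, the gamma subunit of sperm, by 0.20 ± 0.06 (SE, adjusted p = 0.0304), a call lost without any 1 of 5 arrays (KO1, KO5, KO6, WT1 and WT3). Kcnmb1, the beta subunit of smooth muscle, stood at 5.08 ± 0.12 against 5.06 ± 0.04 (SD, n = 6), and Kcnmb2, Kcnmb4 and Lrrc26 also did not pass. Of the 9 genes, Lrrc38 was the 1 whose groups did not overlap, and the largest difference among the 7 partners was that of Lrrc55.

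**Figure D3:**
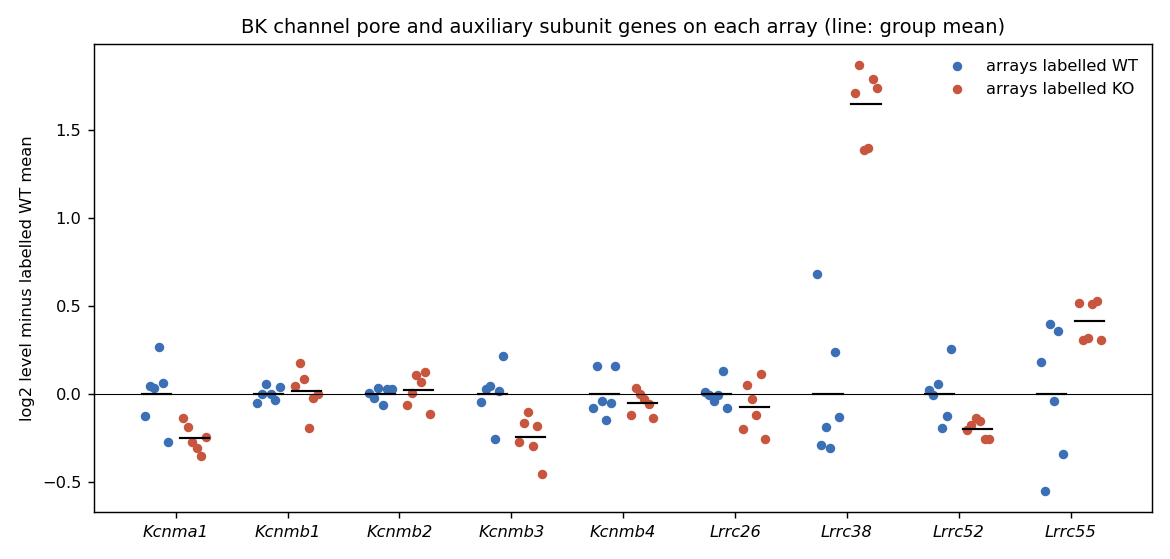
Log2 level minus the labelled WT mean of each gene, for the BK pore gene and its 8 auxiliary subunit genes, on each array labelled WT (blue) and KO (red), with the group means as lines. Lrrc38 on the labelled KO arrays averages 1.65 above the labelled WT mean, while the Kcnma1 mean lies 0.25 below it and no other mean lies more than 0.42 from 0.

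In the other channel families the members stood among genes that changed in both directions. Of 135 other channel and pump genes measured, 17 were higher and 17 lower, together 25.2%, beside 31.9% over all genes, with a median log2 difference of -0.04. This split moved with the centring, to 11 higher and 41 lower with each array centred on its median over the tested probe sets and to 22 and 7 with the median over all rows. Over all tested probe sets the share of calls that were higher was 61.1%, and 36.2% and 77.8% under the same centrings. Clcn1 and Kcnn3 passed and were higher under both, and Kcnma1 was lower under both.

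Clcn1 had the largest difference of its family. Among 7 other CLC genes Clcn5, an endosomal exchanger, was higher by 0.28 ± 0.09 (SE), Clcn2, a broadly expressed chloride channel, was lower by -0.16 ± 0.05, and 5 did not pass. The call of Clcn5 was lost without any 1 of KO1, KO3, KO4, KO6 or WT1, and that of Clcn2 without any 1 of KO4, KO5 or WT5. In the family of Kcnn3, the related SK2 gene Kcnn2 was 1.51-fold higher (a log2 difference of 0.59 ± 0.10 SE, with adjusted p = 0.000571 in limma) with groups that did not overlap, while Kcnn1 and Kcnn4 did not pass. Kcnn1 passed as lower without the array labelled KO3 and without WT4. Around Kcnj2, 2 of 16 inward rectifier and sulfonylurea receptor genes were higher and 2 lower, of which Kcnj4 lost the call without any 1 of KO1, KO4, WT5 or WT6. The highest was Kcnj3, a G protein-gated rectifier of heart and brain, at 1.30 ± 0.09 (SE, adjusted p = 6.00e-07), from 5.98 ± 0.10 to 7.28 ± 0.22 (SD, n = 6). In the Kv1 family of Kcna7, 1 of 10 others was higher (Kcna5) and 2 were lower (Kcna2 and Kcna3), each by less than 0.27 on the log2 scale, and 7 did not pass. The call of Kcna5 was lost without any 1 of 5 arrays (KO2, KO3, KO5, WT3 and WT4) and that of Kcna3 without any 1 of 9, all but KO3, WT2 and WT3.

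Among the sodium channel genes measured, Scn4b and Scn3a differed most, and of 11 genes 1 was higher and 4 were lower. Scn4b, the beta subunit that can pair with the muscle sodium channel, was 2.46-fold higher, with levels of 6.80 to 7.72 on the labelled WT arrays and 8.62 to 8.87 on the labelled KO arrays (log2 difference 1.30 ± 0.13 SE, adjusted p = 1.20e-05). The pore genes of embryonic and adult neurons, Scn3a and Scn2a, fell by 1.17 ± 0.14 and 0.83 ± 0.13 (SE), both with groups that did not overlap, as was so for 4.69% of all genes in this direction. The study lists Scn3a among its largest changes on these arrays, so that its call is not independent. With all probe sets of the gene averaged the Scn2a difference was -0.35. Scn7a was also lower, at -0.42 ± 0.13 (SE). Of 8 neuron markers, 0 were higher and 1 was lower (Nefh). Their list means were 5.84 to 5.99 on the labelled WT arrays and 5.83 to 6.35 on the labelled KO arrays. The 6.35 was that of KO2 alone, with 5.83 to 5.95 on the other arrays labelled KO. Of 5 Schwann cell markers measured, 0 passed, with list means of 7.51 to 7.93 (labelled WT) and 7.41 to 7.96 (labelled KO).

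**Figure D4:**
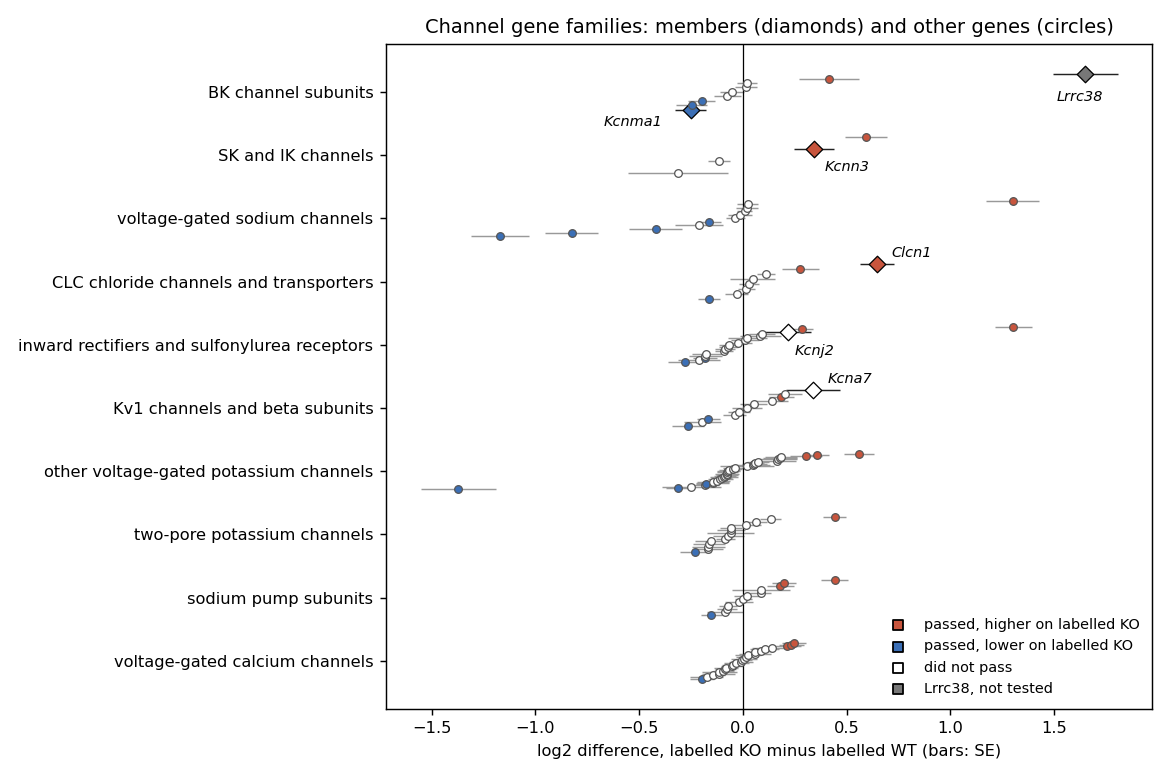
Log2 difference, labelled KO minus labelled WT, with its SE, for the 6 members (diamonds) and the 135 other genes (circles) of 10 channel and pump families; red and blue mark genes that passed the test as higher or lower, white those that did not pass, and grey Lrrc38, which was not tested. Lrrc38 lies at 1.65, Clcn1 at 0.65 and Kcnma1 at -0.25.

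In the remaining families Kcnf1 and Kcnh2 differed most. Kcnf1, a silent subunit that modifies other voltage-gated potassium channels, was 2.59-fold lower (log2 difference -1.37 ± 0.18 SE, adjusted p = 9.35e-05), and Kcnh2, which encodes the ERG1 channel, was 1.47-fold higher (0.56 ± 0.07 SE, adjusted p = 7.62e-05). In that family 3 of 31 were higher and 3 lower. The tandem-pore potassium channels had 1 of 14 higher (Kcnk6, 0.44 ± 0.06 SE) and 1 lower (Kcnk2), the sodium pump genes 3 of 12 higher, led by the beta subunit gene Atp1b2 at 0.44 ± 0.06 (SE), and 1 lower (Fxyd4), and the voltage-gated calcium channels 3 of 24 higher and 1 lower, each by less than 0.25. The call of Kcnk2 was lost without any 1 of 7 arrays (KO1, KO5, KO6, WT1, WT3, WT5 and WT6) and that of Fxyd4 without any 1 of KO1, KO4 or KO6. Of the genes counted as higher, Fxyd6 lost the call without any 1 of 8 arrays (all but KO3, KO6, WT1 and WT3) and Cacna1h without any 1 of 6 (KO2, KO4, KO5, KO6, WT1 and WT2). Other tissue components also differed between the labelled groups, with 4 of 7 adipocyte markers, 6 of 7 fibroblast markers and 5 of 8 myeloid markers higher. Of these, 1 fibroblast marker (Pdgfra) was lower. The fibroblast means were 11.23 to 11.47 on the labelled WT arrays and 11.52 to 11.66 on the labelled KO arrays, the myeloid means 7.89 to 8.54 and 8.46 to 8.71, and the adipocyte means 8.45 to 9.45 and 8.50 to 10.22. Their part in the channel differences was not tested.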

How the data were processed

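Total RNA of quadriceps from 12 mice was hybridized to Affymetrix Mouse Gene ST arrays, 1 array a mouse. Per the methods, the authors extracted images with the Affymetrix operating software and made normalized gene level values with Affymetrix Power Tools. For its version, summary algorithm and genome build nothing was given in the sources used here. Deposited values were read as log2 levels from their range. No detection calls were used, and background was not measured, so that folds of dim genes are not exact. The number of arrays limits the precision.

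Probe sets were named from the platform annotation, with symbols updated through a RefSeq gene table of GRCm38.p6. Of 35556 rows, 21789 had 1 symbol and were tested, 1621 had several and 12146 are unnamed here. RefSeq matched 21698 of those tested. Genes not named by a probe set of their own were not analysed here. Differences were fitted without covariates in limma version 3.58.1 (lmFit and eBayes) in R version 4.3.3, checked on simulated data, and adjusted by Benjamini-Hochberg over the 21789 probe sets at 0.05. Members and lists were chosen with earlier results of these data known. Named beside the members were up to 4 passing genes of each channel family with the largest difference, partner subunits, the 5 genes most like Lrrc38 (predicted genes left out) and Cfl2. Promoters came from RefSeq, which held all 6 members. Samples were grouped by title. Alternatives were a replicate block, quantile normalization, centring on the median over tested probe sets or, added after seeing the data, over all rows, leaving out probe sets with a mean level under 5.39, all rows, other variance settings, array weights, the methods' t-test, all probe sets of a gene averaged, and each array left out.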

Additional observations from a re-analysis of the deposited data

Results flagged for a closer look

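In 6 of 98 groups of 6 arrays examined, an array lay far from the others of its labelled group, and chance alone would mark about 1 in 20 groups. None of the 6 concerned a member. Kcnn4, the IK channel gene, lay at 8.10 on the array labelled WT4, against 6.32 to 6.62 elsewhere in that group, and Scn3a lay at 7.12 on the same array against 6.11 to 6.47. On the array labelled WT2, Kcna2 lay at 8.62 against 8.18 to 8.33 and Scn4b at 6.80 against 7.49 to 7.72. Fxyd4 lay at 5.89 on WT6 against 5.65 to 5.71, and Kcnh2 at 7.88 on KO4 against 8.07 to 8.12.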

How the results depend on the processing

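Lrrc38, Clcn1, Kcnma1, Kcnj2, Kcna7 and Kcnn3 kept their direction under all 22 alternatives run, and Clcn1 passed under all of them, with differences of 0.57 to 0.70. Kcna7 passed with dim probe sets left out (0.34), with centring over all rows (0.39) and with a replicate block (0.34, adjusted p = 0.0259 in limma). In the first of these, fewer probe sets were fitted and adjusted for, and the adjusted p in limma was 0.0492. Leaving out each array gave Kcna7 0.23 to 0.41, Kcnma1 -0.31 to -0.20 and Kcnn3 0.29 to 0.40. Kcnma1 did not pass with centring over all rows (-0.20), and Kcnn3 did not with array weights (0.25) or quantile normalization (0.27). The cause was not tested. Among the 135 other channel genes, centring over the tested probe sets gave 11 higher and 41 lower, centring over all rows gave 7 lower, and the replicate block gave 11 lower, against 17 and 17. Although the study describes pairs of null and littermate mice, the labels do not tie replicate numbers to them, and the numbers were not shown to pair the arrays (deviations of arrays with the same number correlated at -0.22 to 0.17). Of the 6 arrays labelled KO, 2 correlated best with their own number. Under the block 6074 probe sets passed, and over all alternatives 5924 to 9168, against 6952. Small differences that did not pass turned sign, namely Kcnmb1 and Kcnmb2 with centring over the tested probe sets (-0.045 and -0.040) and Kcnmb4 and Lrrc26 with quantile normalization (0.022 and 0.0066). Leaving out each array gave -0.017 to 0.057 for Kcnmb1 and -0.0010 to 0.047 for Kcnmb2. Of 812 further values of non-member channel genes, 102 lost and 3 gained the call. By the methods' t-test, 8864 probe sets passed the study's unadjusted p limit and its ratio limits, the latter applied to the folds here. After Benjamini-Hochberg adjustment, with no ratio limit, 6342 passed. Of the 5 tested members, 4 passed the first way and 3 the second. The study's printed ratios for Cfl2, Lrrc38 and Scn3a lie much nearer to 1, near ratios of the mean log2 levels. Its ratio limits may thus have been applied to another measure than the folds here. The 8864 therefore cannot be compared with the study's own count.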
